A study of Arabidopsis thaliana with 26 samples.

Results

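The MYB-bHLH-WD40 regulators of anthocyanin synthesis were followed through a high light time course in Arabidopsis thaliana Col-0 seedlings. The set holds 9 genes, taken by their locus identifiers from the 33602 in each deposited count table. They are the R2R3-MYB activators PAP1 (MYB75, AT1G56650), PAP2 (MYB90, AT1G66390), MYB113 (AT1G66370) and MYB114 (AT1G66380), the bHLH partners TT8 (AT4G09820), GL3 (AT5G41315) and EGL3 (AT1G63650), the R3-MYB repressor MYBL2 (AT1G71030) and the WD40 protein TTG1 (AT5G24520). Seedlings 7 days old, grown at 22 °C under 24 h growth light of 60 µmol m-2 s-1, either stayed there or were moved to high light of 1200 µmol m-2 s-1, with leaves also at 22 °C. Both arms were sampled after 0.5, 6, 12, 24, 48 and 72 h, and a recovery group had 72 h of high light followed by 14 h of growth light. No group carried a mutation or a transgene. Each of the 13 groups had 2 RNA-seq libraries, each made from 4 µg of RNA of 25 pooled whole seedlings, so levels are averages over shoot and root cells, and fewer cells of a type cannot be told apart from less RNA per cell. Whether both libraries of a group are from separate growths of plants is not labelled, and the p-values then measure only a spread between libraries that may be technical.

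Anthocyanins are red to purple flavonoid pigments that accumulate in the vacuoles of leaf and stem cells, and strong light is a known trigger of their formation. An R2R3-MYB protein, a bHLH protein and TTG1 form the complex that switches on the late genes of the pathway, such as DFR and LDOX. The MYB protein gives the complex its choice of target genes, and the bHLH protein binds both the MYB protein and TTG1. MYBL2 and the small R3-MYB proteins of the CPC family also bind the bHLH protein and hold the complex back, and GL3, EGL3 and TTG1 serve trichome and root hair patterning as well.

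The 9 genes lie on chromosomes 1, 4 and 5 of the RefSeq annotation of TAIR10.1. MYB113, MYB114 and PAP2 stand next to each other on the plus strand, as the 3 annotated genes of the interval chr1:24753589-24765541, which spans 11953 bases. PAP1 lies apart from them at chr1:21233555-21235292 on the minus strand. PAP1 and PAP2 have coding sequences of 747 and 750 bases that are identical at 84.34% of aligned positions. MYB114 has a coding sequence of only 420 bases, against 741 in MYB113, and 91.43% of it matches PAP2. TT8 lies at chr4:6181881-6186523, GL3 at chr5:16529090-16533287 and EGL3 at chr1:23599413-23603164, all on the plus strand. GL3 and EGL3 share 81.27% of aligned coding bases, and TT8 shares 66.33% with GL3. MYBL2 lies at chr1:26795052-26796532 and TTG1 at chr5:8370317-8372847, both on the minus strand.

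Reads can be shared between near-identical copies, so spliced transcripts were compared in windows of 50 bases. PAP2 and MYB114 had 38 windows in common, 3.99% of those of PAP2 and 3.9% of those of MYB114, while the other 7 genes shared no such window with any annotated transcript. The counts of MYB114 are therefore uncertain where those of PAP2 are high.

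The 250 bases upstream of the annotated gene start are shown for PAP1, PAP2, MYB114 and TT8, because PAP2 and MYB114 were the windows of the set with a G-box and PAP1 and TT8 are the members with the most reads in high light. They are from TAIR10.1, chr1:21235293-21235542 (minus strand), chr1:24763691-24763940, chr1:24757048-24757297 and chr4:6181631-6181880 (plus strand), and capitals mark the G-box CACGTG and the core ACGT, the element that bZIP factors such as HY5 are known to recognise.
PAP1: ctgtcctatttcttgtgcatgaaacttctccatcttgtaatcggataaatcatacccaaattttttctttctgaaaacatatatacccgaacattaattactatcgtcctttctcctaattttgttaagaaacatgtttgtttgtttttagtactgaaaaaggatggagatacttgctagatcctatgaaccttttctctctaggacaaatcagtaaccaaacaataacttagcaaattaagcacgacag
PAP2: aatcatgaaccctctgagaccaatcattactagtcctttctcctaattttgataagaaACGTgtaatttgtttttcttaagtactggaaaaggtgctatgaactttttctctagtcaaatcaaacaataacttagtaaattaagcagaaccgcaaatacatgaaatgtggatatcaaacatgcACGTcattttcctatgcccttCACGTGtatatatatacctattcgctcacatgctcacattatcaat
MYB114: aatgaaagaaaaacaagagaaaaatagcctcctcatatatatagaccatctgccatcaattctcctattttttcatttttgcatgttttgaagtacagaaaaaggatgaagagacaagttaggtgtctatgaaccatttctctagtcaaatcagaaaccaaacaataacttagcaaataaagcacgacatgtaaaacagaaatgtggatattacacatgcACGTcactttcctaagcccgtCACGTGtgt
TT8: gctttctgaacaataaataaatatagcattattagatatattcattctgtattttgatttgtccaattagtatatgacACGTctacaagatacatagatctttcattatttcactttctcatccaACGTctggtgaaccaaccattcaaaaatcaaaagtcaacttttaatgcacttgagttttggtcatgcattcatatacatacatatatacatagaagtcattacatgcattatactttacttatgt
The G-box of PAP2 begins 46 bases before the gene start and that of MYB114 begins 9 bases before it. The window of PAP1, their homologue elsewhere on the chromosome, holds no ACGT. Of the 250-base windows of 27561 annotated genes, 6.46% hold CACGTG and 44.03% hold ACGT on either strand, and each G-box holds an ACGT. The MYB element ANCNNCC, searched on both strands, occurs in the windows of 6 of the 9 genes and in 48.85% of all windows. A match is a description of the letters in the window, not a binding site.

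Libraries held 13637677 to 29697279 counts in genes. A gene needed enough counts to be tested, 21449 genes passed, and 8 of the 9 regulators were among them. MYB114 did not pass and is described by its reads. Levels are CPM, the counts of a gene relative to the library total, scaled with TMM factors, and 3 counts, the most that a count of 0 allows, correspond to 0.101 to 0.22 CPM depending on the library. Shoot and root markers were detected in every library, which matches the whole-seedling label. The summed level of 4 root markers was 81.8 to 106 CPM in growth light libraries, 64.7 to 96.9 CPM in high light and 82.8 to 92.1 CPM in recovery. Between 2 and 4 of those 4 markers passed the test as lower in high light at each time and none as higher. The summed level of 3 shoot markers was 17500 to 23470 CPM in growth light and 13210 to 20270 CPM in high light, most of it RBCS1A. From 6 h on, 2 or 3 of these 3 markers passed as lower at each time and none as higher, with LHCB2.1 at -2.02 ± 0.14 and CAT3 at -2.01 ± 0.16 at 12 h. The part of these shifts in the levels of the regulators was not tested.

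High light raised PAP1 at all 6 times, PAP2 and TT8 from 6 h on, and GL3 and EGL3 from 12 h on, while TTG1 was lower at 4 times and MYBL2 was lower at 4 times and higher at 12 h. Counted over the 8 tested regulators, 1 was higher and 2 were lower at 0.5 h, when 13.5% of all tested genes passed as higher, 8.29% as lower and 21.8% in either direction. At 6 h, 3 were higher and 2 lower, against 22.9% and 18.2% of all genes and 41.1% in either direction. At 12 h, 6 were higher and 1 lower, against 24.1% and 21.1% (45.2% together). At 24 h, 5 were higher and none lower, against 26% and 23.9% (49.8% together). At 48 h, 5 were higher and 2 lower, against 24.5% and 23% (47.5% together), and at 72 h, 5 were higher and 1 lower, against 22.3% in each direction (44.6% together). Libraries of high and growth light did not overlap for 54% of all genes at 0.5 h, 65.6% at 6 h, 72.4% at 12 h, 74.5% at 24 h, 76.2% at 48 h and 74.7% at 72 h, so separation of 2 against 2 libraries alone is common here. The test throughout is the quasi-likelihood test of edgeR, adjusted over all tested genes by the method of Benjamini and Hochberg with a threshold of 0.05, and a fold change is given as log2 of high over growth light with its standard error.

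**Figure D1:**
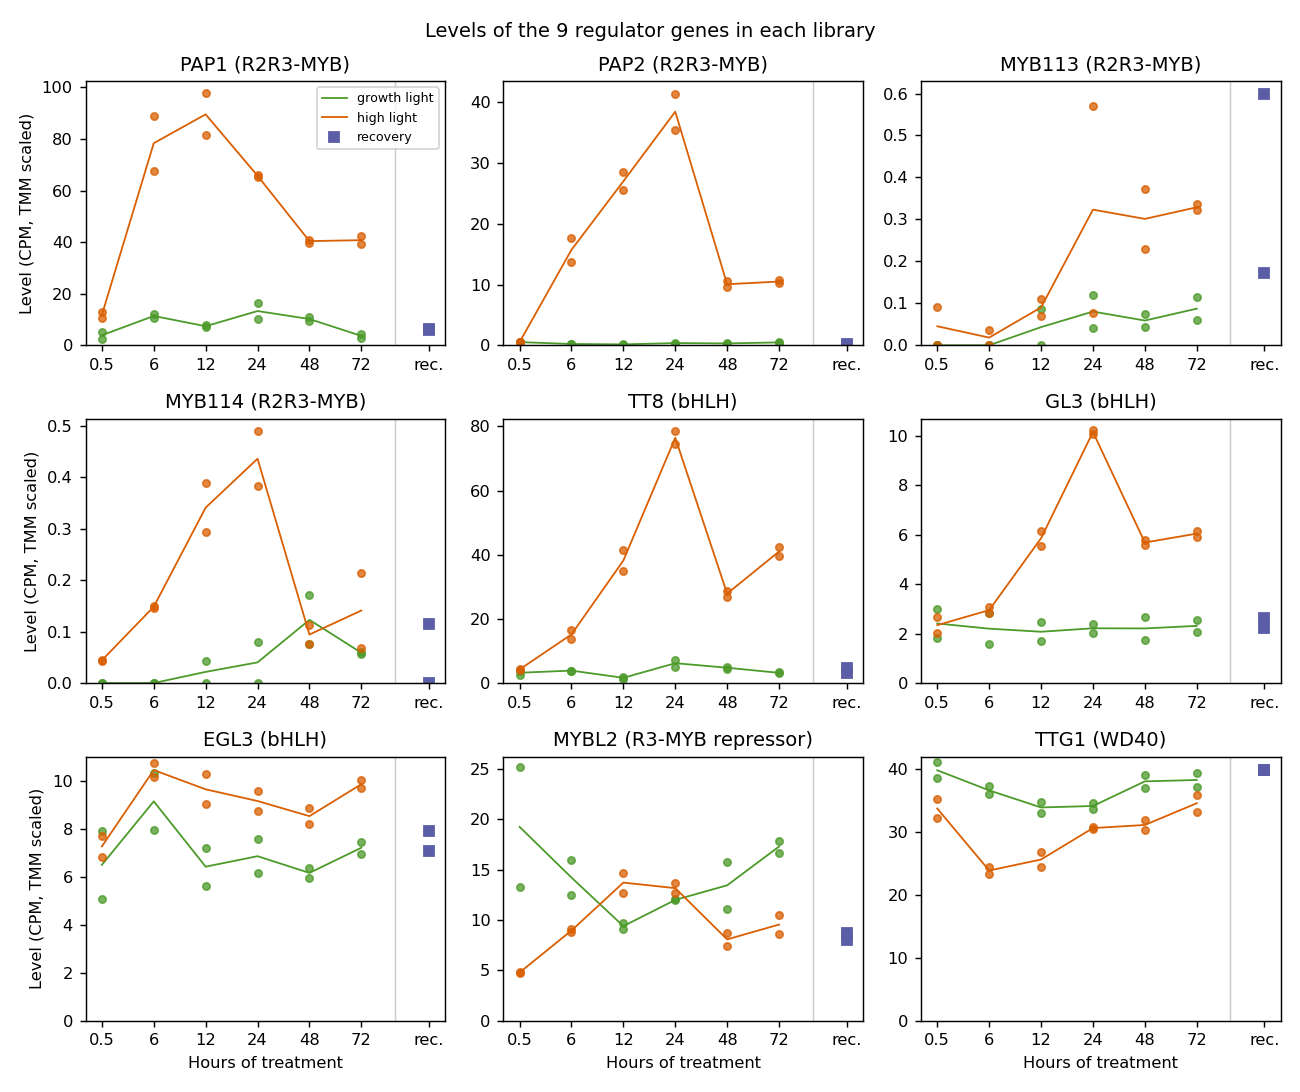
Level of each regulator gene (CPM, TMM scaled, linear axis from 0, scale differs by panel) against hours of treatment, with the times evenly spaced. Points are single libraries, lines join the means of the 2 libraries of growth light (green) and of high light (orange), and squares are the 2 recovery libraries. PAP1 has its highest mean at 12 h of high light (97.7 and 81.4 CPM, against 67.7 and 89.0 at 6 h), whereas PAP2, TT8 and GL3 are highest at 24 h.

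PAP1, the activator with the most reads in all 13 groups, was already higher after 0.5 h. Growth light libraries held between 2.43 and 16.5 CPM of PAP1, with a median of 8.63 CPM. In high light the libraries held 10.7 and 12.8 CPM at 0.5 h, 67.7 and 89.0 at 6 h, 97.7 and 81.4 at 12 h, 65.2 and 66.2 at 24 h, 41.0 and 39.8 at 48 h, and 42.4 and 39.1 at 72 h. Every high light library exceeded the growth light libraries of its own time. Libraries of both lights were apart for 54% to 76.2% of all tested genes at single times. The light effect was 1.60 ± 0.27 at 0.5 h (adjusted p = 7.68e-05) and 2.79 ± 0.19 at 6 h (adjusted p = 1.28e-10), and reached 3.60 ± 0.20, a 12.1-fold difference, at 12 h (adjusted p = 3.25e-12). It was 2.31 ± 0.18 at 24 h and 1.98 ± 0.19 at 48 h, then 3.49 ± 0.24 at 72 h (adjusted p = 1.61e-10). The effect at 72 h exceeded that at 48 h by 1.51 ± 0.33 (adjusted p = 0.03), a call lost without any 1 of the 8 libraries of those times (1.23 to 1.82). It went with a lower growth light level: the mean in high light was 40.4 CPM at 48 h and 40.8 CPM at 72 h while the mean in growth light was 10.2 and 3.63 CPM. At 0.5 h the growth light libraries differed from each other, at 5.33 and 2.43 CPM, and the effect was 2.27 without the first and 1.14 without the second, past the test both times.

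PAP2, the tandem-cluster activator, went from almost no reads to the level of a clearly detected gene. In growth light it had 1 to 11 reads per library, or 0.0397 to 0.605 CPM. After 0.5 h of high light it stood at 0.544 and 0.470 CPM, inside that range, and the difference was -0.05 ± 0.47 (adjusted p = 0.964). From there the high light libraries held 13.7 and 17.7 CPM at 6 h, 28.5 and 25.5 at 12 h, 41.5 and 35.5 at 24 h, 9.55 and 10.6 at 48 h, and 10.2 and 10.8 at 72 h. So PAP2 had its highest mean at 24 h and PAP1 at 12 h, although the PAP1 libraries of 6 and 12 h overlapped. For PAP2 both groups were fully apart from 6 h on, as were 65.6% to 76.2% of all tested genes at single times. The light effect was 6.23 ± 0.29 at 6 h (adjusted p = 3.88e-13), 7.49 ± 0.27 at 12 h (adjusted p = 7.18e-15), 6.71 ± 0.22 at 24 h, 5.04 ± 0.26 at 48 h and 4.47 ± 0.28 at 72 h (adjusted p = 2.33e-11). Its size at 12 h rests on 1504 reads in high light against 7 in growth light. With 1 of those growth light libraries left out it was 6.67 or 9.22, so whether the effect was larger at 12 h or at 24 h depends on them. Without the first, which held 1 read, the change of the effect from 12 to 24 h turned from -0.78 (adjusted p = 0.441) to 0.04.

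MYB113 and MYB114, the other activators of the tandem cluster, stayed near the detection limit in every library. MYB113 had at most 3 reads in a growth light library. In high light it had 14 and 2 reads at 24 h, 10 and 6 at 48 h, and 5 and 6 at 72 h, and in recovery 10 and 3. The ratio of summed reads in high over growth light, scaled for depth, was 3.92 at 24 h (95% interval 1.26 to 16.1) and 5.04 at 48 h (1.44 to 27), where the interval covers counting error only. MYB113 did not pass edgeR's test in any of the 8 comparisons. MYB114 had 11 and 8 reads at 12 h and 12 and 10 at 24 h of high light, against 1 and 2 reads summed over the growth light libraries of those times. Its ratio was 16.5 at 12 h (2.62 to 686) and 10.8 at 24 h (2.65 to 94.6), and at 48 h it was 0.788 (0.19 to 3.1). With 8 reads at 6 h against none, the ratio of MYB114 was 1.94 when 3 counts were taken for the growth light group. This value leaves out the counting error of the 8 reads, so it is not a lower limit. In the same high light libraries from 6 h on, MYB114 reads came to 0.658% to 1.99% of those of PAP2, the gene with which it shares windows.

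Divided by transcript length, the make-up of the R2R3-MYB group moved from PAP1 towards PAP2 from 6 h of high light on. PAP1 supplied 83.9% to 98.0% of the summed CPM per kb of the 4 genes in the growth light groups. In high light its mean share was 94.6% at 0.5 h, 81.7% at 6 h, 74.6% at 12 h, 60.3% ± 3.1 at 24 h, 77.7% at 48 h and 77.0% at 72 h (SD, n = 2). PAP2 made up 39.0% ± 2.7 at 24 h of high light, against 3.19% ± 1.87 in growth light at that time. At 72 h it made up 22.0% ± 1.55 in high light against 11.9% ± 1.48 in growth light. At 0.5 h the order was the other way, at 4.58% ± 0.96 in high light against 14.6% ± 7.25. Within the 24 h libraries, PAP2 stood at 70.3% and 59.3% of PAP1 per kb, against 4.83% and 1.90% in growth light. MYB113 and MYB114 each supplied under 1% of the group in high light, and MYB113 6.71% ± 5.22 in recovery, when all 4 genes were low.

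**Figure D2:**
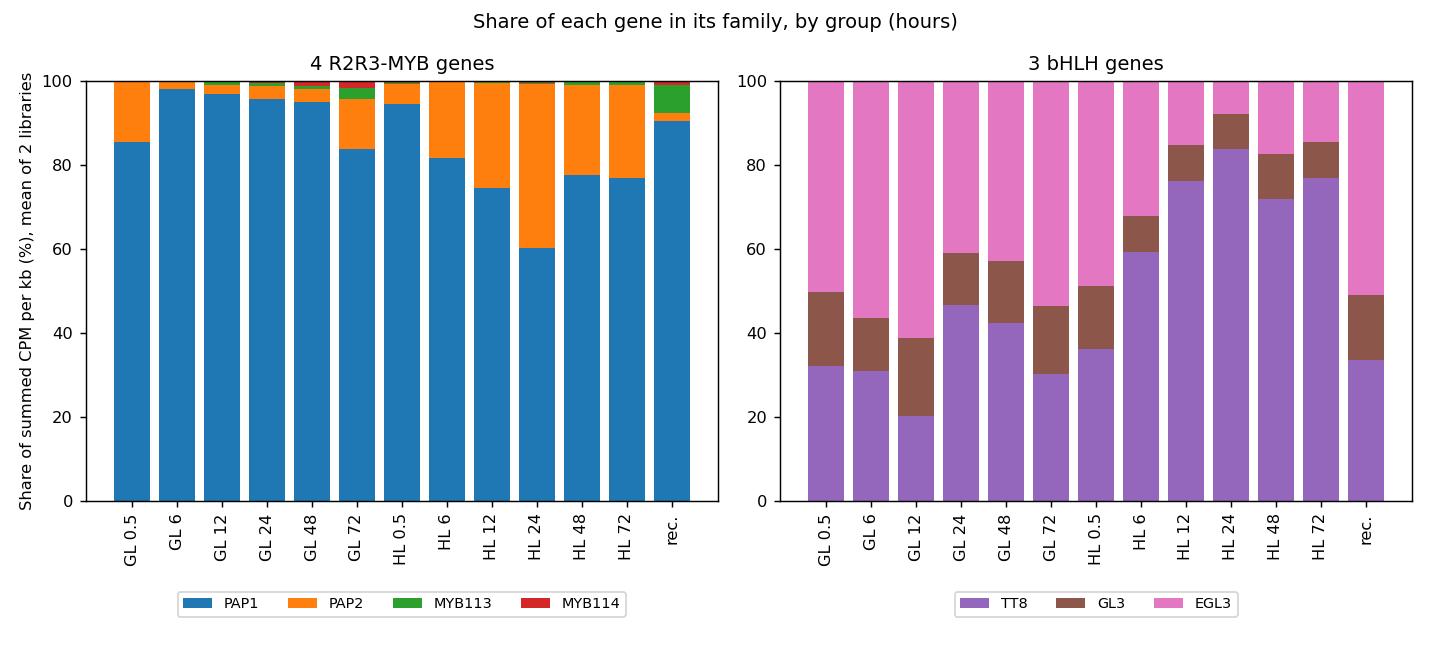
Share of each gene in the summed CPM per kb of its family (mean of 2 libraries, percent) in the 13 groups, with growth light (GL) and high light (HL) hours on the horizontal axis and recovery last. PAP2 takes 39.0% of the R2R3-MYB group and TT8 takes 83.8% of the bHLH group at 24 h of high light.

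TT8, the bHLH protein most tied to flavonoid genes and known to act on its own promoter through the complex, showed the widest swing among the bHLH genes. Growth light libraries held 1.39 to 7.23 CPM. In high light TT8 stood at 4.35 and 4.10 CPM at 0.5 h, 13.8 and 16.5 at 6 h, 41.5 and 34.9 at 12 h, 78.5 and 74.4 at 24 h, 27.0 and 28.8 at 48 h, and 39.6 and 42.4 at 72 h. The libraries at 0.5 h did not overlap, as was so for 54% of all tested genes, but the difference did not pass the test, at 0.40 ± 0.21 (adjusted p = 0.205). TT8 then rose by 1.97 ± 0.17 at 6 h (adjusted p = 2.87e-09), 4.56 ± 0.17 at 12 h (adjusted p = 1.21e-14), 3.63 ± 0.14 at 24 h, 2.55 ± 0.15 at 48 h and 3.69 ± 0.17 at 72 h (adjusted p = 1.94e-13). The effect was largest at 12 h although the level was highest at 24 h, because growth light means were 1.62 CPM at 12 h and 6.18 CPM at 24 h.

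GL3, a bHLH protein of trichome and root hair patterning, rose later and less. It stood at 1.56 to 2.98 CPM in growth light, and in high light at 2.67 and 2.01 CPM at 0.5 h, 3.08 and 2.82 at 6 h, 6.17 and 5.54 at 12 h, 10.06 and 10.25 at 24 h, 5.78 and 5.58 at 48 h, and 5.92 and 6.16 at 72 h. The groups overlapped until 6 h and were apart afterwards, as were 72.4% to 76.2% of all tested genes at single times. The effect was 0.47 ± 0.26 at 6 h (adjusted p = 0.152), 1.49 ± 0.23 at 12 h (adjusted p = 1.24e-05), 2.20 ± 0.21 at 24 h (adjusted p = 1.73e-08), 1.35 ± 0.22 at 48 h and 1.38 ± 0.25 at 72 h (adjusted p = 0.000103). Without the second growth light library at 6 h, the 6 h effect passed the test at 0.91 (adjusted p = 0.0231).

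EGL3, the close homologue of GL3, moved by a small amount only. It held 5.08 to 10.3 CPM in growth light and 6.84 to 10.7 CPM in high light, and the ranges overlapped widely when times were pooled. Its light effect was 0.58 ± 0.16 at 12 h (adjusted p = 0.00477), 0.42 ± 0.16 at 24 h (adjusted p = 0.034), 0.47 ± 0.16 at 48 h (adjusted p = 0.021) and 0.45 ± 0.17 at 72 h (adjusted p = 0.0399). These calls were marginal. DESeq2 gave adjusted p = 0.0647 at 24 h and 0.0612 at 72 h, and leaving out a single library of the groups compared ended the call at each time. This happened without the second library of either group at 12 h (0.42 and 0.49), without the second growth light or either high light library at 24 h (0.28 to 0.48), without either growth light or the first high light library at 48 h (0.41 to 0.52), and without any of the 4 libraries at 72 h (0.40 to 0.49).

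The bHLH group moved towards TT8. EGL3 made up 40.9% to 61.3% of the summed CPM per kb of the 3 bHLH genes in growth light groups, and TT8 20.2% to 46.6%. TT8 was already ahead of EGL3 in growth light at 24 h, at 46.6% against 40.9%, and about level with it at 48 h, at 42.4% against 43.0%. At 12 h TT8 supplied 76.1% ± 2.8 in high light against 20.2% ± 6.4 in growth light, and at 24 h 83.8% ± 1.0 against 46.6% ± 9.5. The share of EGL3 at 24 h of high light was 7.90% ± 0.70. The mean share of GL3 lay between 8.27% and 18.6% in the 13 groups, and was lower in high than in growth light at each time. At 12 h it was 8.68% ± 0.09 in high light against 18.6% ± 2.8 in growth light.

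**Figure D3:**
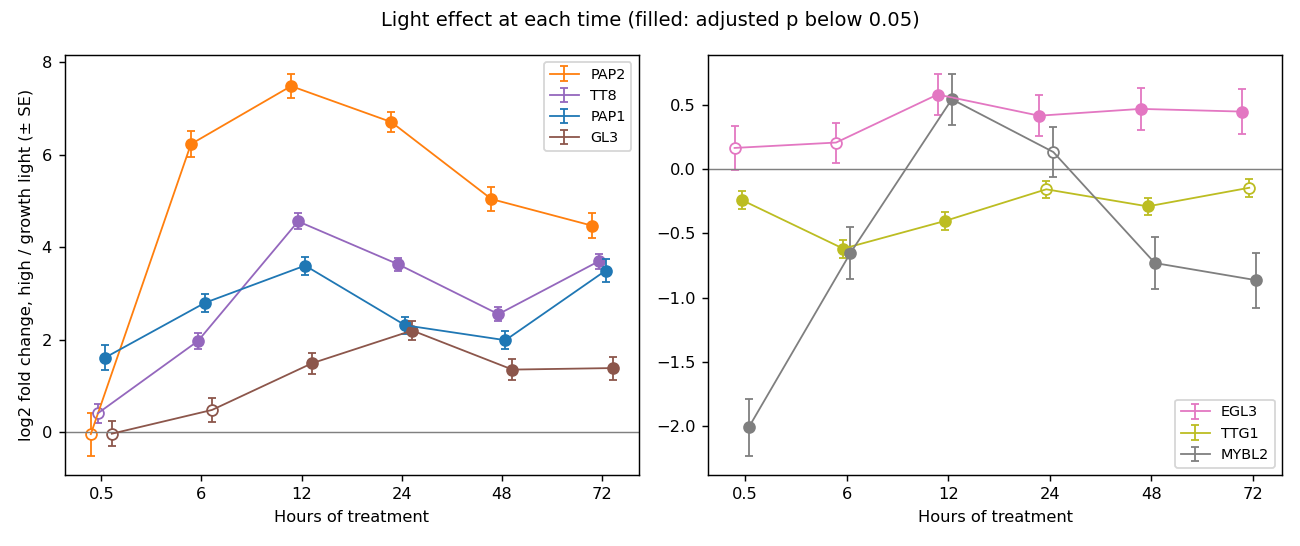
Light effect (log2 of high over growth light, error bars ± SE) on the 7 regulators with a fitted fold change that is reported, against hours of treatment with the times evenly spaced, in panels of different vertical scale. Filled points passed edgeR's test; PAP2 is at 7.49 and TT8 at 4.56 at 12 h (6.67 to 9.22 for PAP2 with single libraries left out), GL3 peaks at 2.20 at 24 h, and MYBL2 goes from -2.01 at 0.5 h to 0.54 at 12 h and -0.86 at 72 h.

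MYBL2, the repressor that binds the bHLH partners, was the only regulator of the set called in both directions along the light course. Growth light libraries held 9.13 to 25.2 CPM. After 0.5 h of high light MYBL2 stood at 4.76 and 4.83 CPM against 13.3 and 25.2 CPM in growth light, a fall of 4.02-fold (log2 -2.01 ± 0.22, adjusted p = 2.76e-07). The growth light libraries at that time were far apart, but the high light libraries lay well under both. At 6 h it stood at 9.11 and 8.82 CPM in high light against 12.5 and 15.9 (-0.65 ± 0.20, adjusted p = 0.0134). At 12 h the order was reversed, with 14.7 and 12.7 CPM in high light against 9.68 and 9.13 (0.54 ± 0.20, adjusted p = 0.0298). The groups differed little at 24 h (0.13 ± 0.20, adjusted p = 0.597), and MYBL2 was again lower at 48 h (-0.73 ± 0.20, adjusted p = 0.00529) and at 72 h, with 10.5 and 8.63 CPM against 16.7 and 17.9 (-0.86 ± 0.21, adjusted p = 0.00221).

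Single libraries decided 3 of these calls. The 6 h call was lost without the second growth light library (-0.48, adjusted p = 0.136) or the second high light library (-0.63, adjusted p = 0.0643). The 12 h call was lost without either growth light library (0.59 and 0.51) or the first high light library (0.44, adjusted p = 0.177). At 48 h it was lost without the first growth light library (-0.46, adjusted p = 0.129) or the first high light library (-0.62, adjusted p = 0.0581). The falls at 0.5 and 72 h passed with every library left out in turn.

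TTG1, the WD40 scaffold, had the lower mean in high light at each time, by small amounts, and passed the test at 4 of the 6. Growth light libraries held 33.0 to 41.0 CPM and high light libraries 23.3 to 35.9 CPM. At 6 h the levels were 24.4 and 23.3 CPM in high light against 37.2 and 35.9, and at 12 h 24.3 and 26.9 against 33.0 and 34.7. The groups did not overlap at any of the 6 times, as was so for 54% to 76.2% of all tested genes at single times. TTG1 fell by 0.24 ± 0.07 at 0.5 h (adjusted p = 0.0129), 0.62 ± 0.07 at 6 h (adjusted p = 2.1e-07), 0.40 ± 0.07 at 12 h (adjusted p = 4.29e-05) and 0.29 ± 0.07 at 48 h (adjusted p = 0.0011). The differences at 24 h (-0.16 ± 0.07, adjusted p = 0.0591) and 72 h (-0.14 ± 0.07, adjusted p = 0.102) did not pass. The call at 0.5 h was lost when only the 4 libraries of that time were fitted (adjusted p = 0.143), without the second growth light library (-0.19, adjusted p = 0.12) and without the first high light library (-0.18, adjusted p = 0.18). LWD1 and LWD2, WD40 proteins related to TTG1 and known from the clock, gave 1 call between them in the 6 light comparisons, LWD1 at 6 h (-0.24 ± 0.07, adjusted p = 0.00935).

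The change of the light effect between neighbouring times was tested as a difference of differences. From 0.5 to 6 h, the signed value of the light effect went up for 4 of the 8 regulators (PAP1, PAP2, TT8 and MYBL2, the last from -2.01 to -0.65) and down for 1 (TTG1, from -0.24 to -0.62), against 14.8% of all genes in each direction and 29.6% together. From 6 to 12 h it went up for 2, against 3.93% up, 5.69% down and 9.61% together. From 12 to 24 h it went down for 2, against 7.18% up, 7.58% down and 14.8% together. From 24 to 48 h it went down for 2, against 5% up, 7.35% down and 12.3% together. From 48 to 72 h it went up for 2, against 0.643% up, 0.494% down and 1.14% together. Neighbouring differences share the libraries of the time between them.

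After return to growth light for 14 h, PAP1, PAP2, TT8 and GL3 were down. The recovery seedlings were also 14 h older than the 72 h high light group, so the extra time and the return cannot be told apart. Compared with 72 h of high light, 4 of the 8 tested regulators were lower and 1 was higher, against 18.6% of all genes lower, 18.6% higher and 37.1% in either direction. PAP1 stood at 5.88 and 6.32 CPM in recovery against 42.4 and 39.1 before it, and fell by 2.74 ± 0.22 on the log2 scale (adjusted p = 2.69e-09). PAP2 had 3 and 1 reads in the recovery libraries, and fell by 6.42 ± 0.36 (adjusted p = 8.74e-12), a size that ranged from 5.82 to 7.38 with either of those libraries left out. TT8 stood at 4.56 and 3.27 CPM and fell by 3.39 ± 0.16 (adjusted p = 5.75e-13), and GL3 stood at 2.22 and 2.64 CPM and fell by 1.31 ± 0.25 (adjusted p = 0.000216). No recovery library of these 4 genes overlapped the high light libraries, as was so for 69% of all genes.

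EGL3 did not pass in that comparison (-0.39 ± 0.17, adjusted p = 0.0798), but it passed when only the compared groups were fitted (-0.40, adjusted p = 0.0206). MYBL2 stood at 8.04 and 8.73 CPM and did not pass (-0.18 ± 0.23, adjusted p = 0.585). TTG1, at 39.8 CPM in both recovery libraries, was 0.20 ± 0.07 higher (adjusted p = 0.0275), a call that DESeq2 did not make (adjusted p = 0.0811) and that was lost without the first high light library (0.15) or either recovery library (0.21 in both cases).

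Against seedlings kept in growth light for 72 h, 1 of the 8 tested regulators differed after recovery, against 11.6% of all genes, 6.57% lower and 5.03% higher. It was MYBL2, which remained lower, at 8.04 and 8.73 CPM against 16.7 and 17.9, groups that were apart as for 59.2% of all genes (-1.04 ± 0.22, adjusted p = 0.00283). This comparison and the one at 72 h share their growth light libraries. The recovery seedlings were 14 h older than that group, so the extra time and the recovery cannot be told apart, and MYBL2 varied 2.05-fold along the growth light course itself. PAP1 was at 5.88 and 6.32 CPM against 2.91 and 4.36 (0.75 ± 0.32, adjusted p = 0.134), and it passed when only the 4 libraries of the comparison were fitted (adjusted p = 0.00382). PAP2 had 4 reads in recovery against 16 (-1.95 ± 0.73, adjusted p = 0.0883). TT8 (0.30 ± 0.23), GL3 (0.07 ± 0.29), EGL3 (0.06 ± 0.18) and TTG1 (0.06 ± 0.07) did not pass either.

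Some regulators also varied along the growth light course itself, with no change of light, at a share close to that of all tested genes. An F test over the 6 growth light groups was passed by PAP1 (adjusted p = 1.47e-05), TT8 (8.01e-06), MYBL2 (0.0029) and TTG1 (0.0296), and by 46.2% of all tested genes. TT8 was lowest at 12 h and highest at 24 h, a 3.81-fold span, and PAP1 was lowest at 72 h and highest at 24 h, a 3.65-fold span. MYBL2 was also lowest at 12 h, with a 2.05-fold span. PAP2 (adjusted p = 0.1), EGL3 (0.0749), GL3 (0.982) and MYB113 (0.461) did not pass. Of the 12 late anthocyanin genes, 11 were lowest at 12 h in growth light, against 19% of all tested genes, and DFR spanned 9.66-fold.

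Of the 12 late anthocyanin genes, 1 was higher at 0.5 h of high light and 12 were higher at each later time, and none was lower. Over all tested genes, 13.5% passed as higher at 0.5 h and 22.3% to 26% at the later times. The early call, named after its value was seen, was UGT78D2, an anthocyanidin and flavonol glucosyltransferase (1.31 ± 0.10, adjusted p = 1.07e-09). The median effect over the list was -0.16 at 0.5 h, 1.46 at 6 h, 4.42 at 12 h, 2.79 at 24 h, 1.97 at 48 h and 3.25 at 72 h, against medians between -0.01 and 0.03 over all tested genes. DFR, which makes leucoanthocyanidins, stood at 51.4 CPM on average at 0.5 h of high light, 204 at 6 h, 497 at 12 h, 932 at 24 h, 444 at 48 h and 532 at 72 h, and LDOX, the next enzyme, at 826 CPM at 24 h. DFR rose by 5.23 ± 0.24 at 12 h (adjusted p = 2.43e-13), UGT79B1, a xylosyltransferase, by 5.02 ± 0.24, LDOX by 4.92 ± 0.23 and UGT75C1, a glucosyltransferase, by 4.69 ± 0.20. In recovery all 12 were lower than at 72 h of high light, as 18.6% of all tested genes were, with a median of -2.91. TT7, the flavonoid hydroxylase, led at -4.08 ± 0.18. TT7 can also be classed as an early flavonoid gene, and DFR came next at -3.59 ± 0.22.

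The 6 early flavonoid genes were all higher from 6 to 72 h, with CHS, the entry enzyme, at 2.85 ± 0.14 and F3H at 4.28 ± 0.29 at 12 h. The F3H value rests on few reads, 6 to 28 per growth light library (0.26 to 1.12 CPM), and F3H reached at most 9.41 CPM in high light. CHS held 392 to 1123 CPM in growth light. The cause of the low F3H counts was not tested. MYB11, MYB12 and MYB111, R2R3-MYB activators of flavonol synthesis that do not need a bHLH partner, were higher at all 6 times. MYB12 was already 1.30 ± 0.17 higher at 0.5 h (adjusted p = 4.06e-06), and MYB11 reached 3.77 ± 0.25 at 12 h (adjusted p = 5.45e-11).

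**Figure D4:**
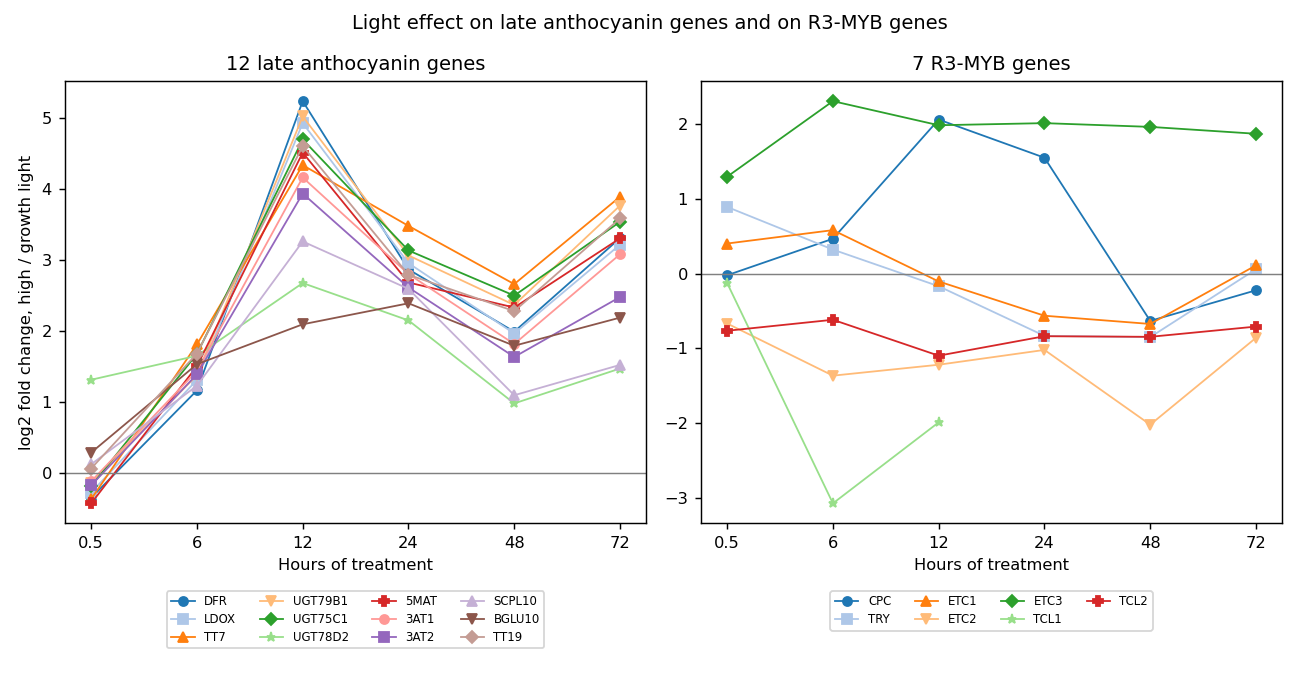
Light effect (log2 of high over growth light) on 12 late anthocyanin genes and on 7 R3-MYB genes against hours of treatment, with the times evenly spaced and each line a gene. DFR peaks at 5.23 at 12 h, ETC3 stays between 1.29 and 2.30, and TCL1 is drawn only where each light had more than 3 reads over its 2 libraries.

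The R3-MYB genes of the CPC family, whose short proteins compete with R2R3-MYB proteins for the bHLH partner, split by gene. ETC3 was higher at all 6 times, with effects from 1.29 ± 0.28 at 0.5 h (adjusted p = 0.00119) to 2.30 ± 0.21 at 6 h, and stood at 10.4 and 13.2 CPM at 6 h of high light against 2.04 and 2.83. CPC stood at 9.44 and 10.02 CPM at 12 h of high light against 2.82 and 1.82, and was higher at 12 h (2.06 ± 0.18, adjusted p = 7.05e-09) and 24 h (1.55 ± 0.17), then lower at 48 h (-0.63 ± 0.20, adjusted p = 0.0111). TT8 had its largest light effect at 12 h and its highest level at 24 h. At 72 h, with TT8 at a mean of 41 CPM, ETC3 was the only 1 of the 7 R3-MYB genes that was higher. A link between CPC and TT8 was not tested.

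TCL2 was lower at all 6 times (-0.62 to -1.10), and ETC2 at 6, 12 and 48 h, with -2.02 ± 0.42 at 48 h. TCL1 had 22 and 22 reads at 6 h of growth light against 3 and 4 in high light (-3.07 ± 0.53, adjusted p = 6.87e-05), and at 72 h it had 12 and 6 reads against none. TRY was lower at 24 h (-0.83 ± 0.30) and 48 h (-0.85 ± 0.28), and ETC1 did not pass at any time. In recovery ETC3 fell by 1.95 ± 0.27 (adjusted p = 5.67e-06), while TCL2 was higher by 1.05 ± 0.26 (adjusted p = 0.00285) and TCL1 passed as higher (adjusted p = 0.00023), with 10 and 13 reads against none. None of the 7 genes passed the test against 72 h of growth light, which only 11.6% of all tested genes did.

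LBD37, LBD38 and LBD39, nitrate-induced repressors of PAP1 and PAP2, were lower at 5 or more of the light times. LBD37 fell by 1.25 ± 0.07 at 0.5 h (adjusted p = 1.34e-11) and by 0.67 ± 0.07 at 12 h. LBD39 fell by 1.20 at 0.5 h, was higher at 6 h (0.46, adjusted p = 0.0142), and was lower from 12 h on. All 3 were higher in recovery than at 72 h of high light, by 0.59 to 1.06. SPL9, a repressor that binds PAP1 and was named after its values were seen, passed as higher at 6 h (0.88, adjusted p = 6.04e-05) and 72 h (0.79, adjusted p = 0.000465).

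Of 10 upstream light signalling genes, 7 were higher and 1 lower at 0.5 h, against 13.5% and 8.29% of all tested genes. HY5, the bZIP factor known to act on PAP1, was higher at all 6 times, by 1.13 at 0.5 h (adjusted p = 5.71e-09) and 0.91 ± 0.10 at 12 h, and HYH, its homologue, by 1.27 ± 0.10 at 12 h. BBX32, a B-box factor, was 2.85 higher at 0.5 h (adjusted p = 3.48e-14), and BBX21 was lower at all 6 times. In recovery HY5 and HYH fell by 0.89 ± 0.10 and 0.94 ± 0.10.

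The small RNA branch was read from TAS4, a non-coding transcript that is cut into trans-acting small RNAs, among them a species known to guide cleavage of PAP1, PAP2 and MYB113 mRNA. TAS4 lies at chr3:9417551-9418705 on the minus strand and was added after the gene lists were set, outside the rule for named genes. A 21-base stretch that begins at position 950 of TAS4 recurs in the activators, and it is shown because the members differ in it, with capitals marking bases that differ from TAS4.
TAS4: gcctcgacctcgatccttcac
PAP1: gcctcgacctcgatccttcac
PAP2: gcctcgacctcgatccttcTc
MYB113: gcctcgGcctcgatccttcTc
MYB114: gcctcgGcctcgatTcttcTc
PAP1 matched at all 21 bases, PAP2 with 1 difference and MYB113 with 2, each inside the coding sequence. MYB114 matched with 3 differences, outside its shorter coding sequence. Over all annotated transcripts, no other gene held the stretch with 2 or fewer differences.

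TAS4 RNA was high in the groups in which PAP2 and TT8 were high. Growth light libraries held 0.436 to 2.09 CPM. In high light TAS4 stood at 0.861 and 1.03 CPM at 0.5 h, 6.00 and 7.58 at 6 h, 13.4 and 13.1 at 12 h, 37.0 and 38.9 at 24 h, 7.94 and 9.98 at 48 h, and 8.54 and 10.2 at 72 h. Its light effect was 0.01 at 0.5 h (adjusted p = 0.987), 2.11 ± 0.21 at 6 h, 4.84 ± 0.23 at 12 h, 4.57 ± 0.17 at 24 h, 2.59 ± 0.19 at 48 h and 3.92 ± 0.26 at 72 h. In recovery TAS4 fell by 3.85 ± 0.25, to 0.5998 and 0.6891 CPM, and it differed from 72 h of growth light by 0.07 (adjusted p = 0.949). These libraries hold mRNA and the precursor, and small RNAs were not measured in them.

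**Figure D5:**
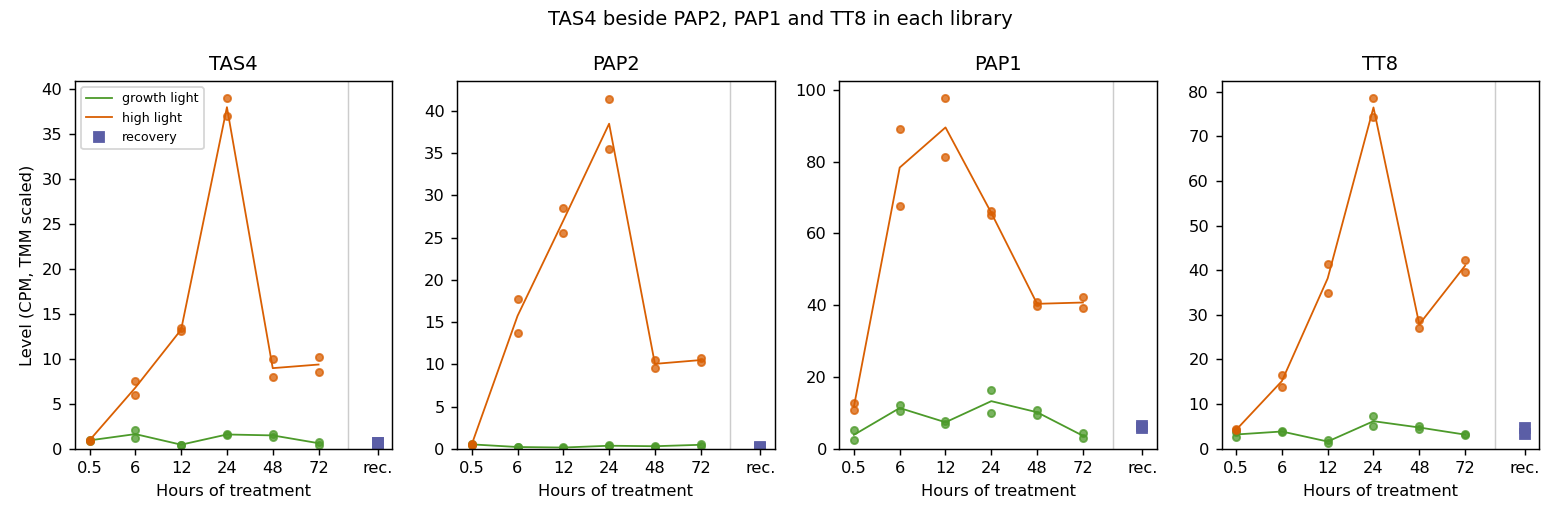
Level (CPM, TMM scaled, axis from 0, scale differs by panel) of the TAS4 precursor, PAP2, PAP1 and TT8 against hours of treatment, with the times evenly spaced; points are libraries, lines join means and squares are recovery. The means of TAS4, PAP2 and TT8 are highest at 24 h of high light and that of PAP1 at 12 h, where its libraries overlap those of 6 h.

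Pearson correlations over the 13 group means of log2 CPM describe how alike the patterns were. The groups share a time course, so no p-value is given. TT8 and TAS4 reached 0.98, TT8 and GL3 0.952, PAP2 and TAS4 0.952, PAP2 and TT8 0.945, and PAP1 and PAP2 0.906. TTG1 ran opposite to PAP1, at -0.868, and MYBL2 gave -0.219 to -0.008 against PAP1, PAP2, TT8, GL3 and EGL3. Among 16731 other tested genes whose highest group mean was at least 5 CPM, the nearest to TT8 were TT19, the glutathione transferase that carries anthocyanins to the vacuole (0.9887), UGT75C1 (0.9878) and the malonyltransferase gene 5MAT (0.9844). These 3 belong to the late anthocyanin list.

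The nearest genes to the other regulators were not in any of the gene lists used here. A gene outside these lists can still belong to the pathway. PAP2 was closest to SPPA, a chloroplast protease gene (0.9825), AT5G06410 (0.9789) and AT1G06690 (0.9753). PAP1 was closest to AT5G41460 (0.9706), AT4G27560 (0.9629) and AT3G27570 (0.9522). GL3 was closest to APD2 (0.9827), AtCDC48B (0.9812) and AIP2 (0.9796), and EGL3 to HMG, also called SSRP1 (0.9606), AT2G18410 (0.9414) and AT5G61880 (0.9332). MYBL2 had the loosest neighbours, ZFP6 (0.8732), AP2 (0.8164) and VFB3 (0.8156), and TTG1 was closest to AT1G44770 (0.9747), AT5G47390 (0.9739) and AT1G10150 (0.972). MYB113, at its few reads, was closest to ST2A (0.9663), AT1G53030 (0.9413) and NIT2 (0.9304).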

How the data were processed

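The deposited tables held whole-number counts of reads per gene for each library, made by the authors from stranded single-end mRNA reads, per the labels' protocols. The submitters' processing notes name TopHat2 2.1.1, HTSeq 0.6.0, edgeR and the build TAIR10; for the counting options and the edgeR version, sources used here give nothing. Regulators were taken by locus identifier. Members and gene lists were chosen with earlier results of these data known. Counts were scaled with TMM factors (0.924 to 1.09), genes were kept by filterByExpr with a minimum count of 10, and 13 group means were fitted over all 26 libraries with edgeR 4.0.16 in R 4.3.3 (quasi-likelihood test, Benjamini-Hochberg adjustment over 21449 genes, threshold 0.05, 13 residual degrees of freedom). SE is the absolute log2 change divided by the square root of F. The biological coefficient of variation was 6.54%. The fit was tested on counts simulated for the 6 h light comparison only, with the spread that the fit itself estimated. Genes of low mean level were left out, so this covers neither MYB113 and MYB114 nor libraries that are technical repeats. Intervals on reads cover counting error only. Of 33602 identifiers, 32835 matched the RefSeq table. Loci and sequences were read from the RefSeq genome TAIR10.1, and gene starts are those of its annotation. Of each gene list, up to 4 genes with the largest change past the test at 12 h or in recovery were named, besides all tested flavonol MYB, R3-MYB and LWD genes and, for each regulator, the 3 genes of most similar pattern. Alternatives were RLE and upper-quartile factors, other filters, DESeq2 1.42.0, a replicate block, fits of the compared groups alone and each library left out.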

Additional observations from a re-analysis of the deposited data

Results flagged for a closer look

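The light effect on several regulators differed between neighbouring times, by edgeR's test of the difference with adjustment over all tested genes. Values are changes in the signed log2 effect. From 0.5 to 6 h the change was 1.19 ± 0.35 for PAP1 (adjusted p = 0.0124), 6.28 ± 0.69 for PAP2 (adjusted p = 5.02e-07) and 1.57 ± 0.28 for TT8 (adjusted p = 0.000163). It was 1.36 ± 0.30 for MYBL2 (adjusted p = 0.00163), whose effect shrank from -2.01 to -0.65, and -0.38 ± 0.10 for TTG1 (adjusted p = 0.00488), whose effect went from -0.24 to -0.62. The growth light libraries at 0.5 h differed for PAP1 and MYBL2, and without the first of them the PAP1 difference was 0.53 (adjusted p = 0.417).

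From 6 to 12 h TT8 changed by 2.59 ± 0.27 (adjusted p = 2.29e-06) and MYBL2 by 1.20 ± 0.28 (adjusted p = 0.00976), from lower to higher in high light, a call lost without the second growth light library at 6 h (1.03, adjusted p = 0.0548). From 12 to 24 h PAP1 changed by -1.29 ± 0.27 (adjusted p = 0.00297) and TT8 by -0.93 ± 0.24 (adjusted p = 0.0137). For TT8 this was lost without the first growth light library at 12 h (-0.73, adjusted p = 0.117) or the second at 24 h (-0.66, adjusted p = 0.095).

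From 24 to 48 h TT8 changed by -1.08 ± 0.21 (adjusted p = 0.0012) and MYBL2 by -0.86 ± 0.28 (adjusted p = 0.0481), and the MYBL2 call was lost with 21 of the 26 libraries left out in turn. From 48 to 72 h PAP1 changed by 1.51 ± 0.33 (adjusted p = 0.03) and TT8 by 1.14 ± 0.24 (adjusted p = 0.0228). The TT8 call was lost with 7 single libraries left out (1.06 to 1.23).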

How the results depend on the processing

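With 2 libraries per group, the effects on EGL3 from 24 h on and on TTG1 at 0.5, 24 and 72 h lie close to the threshold, and MYB113, MYB114 and growth light PAP2 are limited by their few reads. For the number of regulators called, upper-quartile factors gave 1 for the 24 to 48 h difference, and so did the replicate block, where MYBL2 was lost (-0.87, adjusted p = 0.0523). The block changed no other call of a regulator. Same-numbered libraries had correlations of deviations from -0.144 to 0.04, so the numbers were not taken as pairs. With no filter on low counts, 3 regulators passed between recovery and 72 h growth light (PAP1, PAP2 and MYBL2), 4 in the 6 to 12 h difference and 4 in the 24 to 48 h difference. Fitting only the compared groups gave 2984 genes at 0.5 h against 4671, and 4470 genes and 2 regulators between recovery and 72 h growth light against 2489 and 1; such fits have fewer samples, and the cause was not tested. With single libraries left out, regulators called ranged from 1 to 4 for 6 to 12 h, 1 to 2 for 12 to 24 h, 1 to 2 for 24 to 48 h and 0 to 2 for 48 to 72 h.

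Values that changed sign when a library was left out had not passed the test. At 0.5 h they ranged from -0.152 to 0.055 for PAP2, -0.35 to 0.345 for GL3 and -0.123 to 0.518 for EGL3. Between recovery and 72 h growth light they ranged from -0.076 to 0.239 for GL3 and -0.03 to 0.131 for EGL3. Differences between neighbouring times ranged for EGL3 from -0.308 to 0.332 (0.5 to 6 h), -0.359 to 0.001 (12 to 24 h), -0.106 to 0.195 (24 to 48 h) and -0.083 to 0.034 (48 to 72 h). They ranged from -2.513 to 0.038 for PAP2 (12 to 24 h), and for 48 to 72 h from -0.32 to 0.296 for GL3 and -0.406 to 0.103 for MYBL2. The cause was not tested. Upper-quartile factors ended the EGL3 calls at 24 h (adjusted p = 0.0944) and 72 h (adjusted p = 0.0552), and brought TTG1 past the test at 24 h (-0.24, adjusted p = 0.0057), as RLE factors did (adjusted p = 0.0454).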

Other observations

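Genes that the same complexes serve in other tissues were split. TTG2, a WRKY factor downstream of the complex in trichomes and seed coats, stood at 5.59 to 9.75 CPM in growth light and at 36.5 and 34.6 CPM at 12 h and 43.7 and 45.2 CPM at 24 h of high light. It was higher at 5 of 6 times by edgeR's test, by 2.62 ± 0.09 at 12 h (adjusted p = 5.23e-15), and in recovery it fell by 1.41 ± 0.09. MYC1, a bHLH gene related to GL3, rose by 0.54 ± 0.14 at 12 h (adjusted p = 0.00217) and fell by 0.43 ± 0.14 in recovery. GL1, WER, MYB23 and GL2, the trichome and root hair regulators of the same list, did not pass at 12 h, and at 48 h all 4 were lower. At 72 h MYB23 was higher, by 0.62 ± 0.17 (adjusted p = 0.00603), and in recovery GL1 was 0.95 ± 0.35 lower than at 72 h of high light (adjusted p = 0.038). WER, a root gene, was 1.91 ± 0.32 lower at 72 h (adjusted p = 4.49e-05) and higher in recovery by 1.78 ± 0.33. All 4 root markers were also lower at 72 h, and their part in the WER value was not tested.

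Of 7 seed coat genes, 2 had enough reads to be tested. AHA10, a proton pump of the seed coat vacuole, stood at 0.912 to 2.30 CPM in growth light and at 16.74 and 21.04 CPM at 24 h of high light. It rose by 3.23 ± 0.21 at 12 h (adjusted p = 5.96e-11) and fell by 1.45 ± 0.24 in recovery. MYB5 did not pass in any of the 8 comparisons. TT2, BAN, TT12, TT1 and TT16, which belong to the tannin branch of the seed coat, had at most 9 reads in any library.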
